A study of Mus musculus with 6 samples.

Results

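The cytoplasmic ribosomal protein genes of the mouse lens epithelium were compared between 0 h and 5 days after removal of the lens fiber cells. Members were taken by name: protein-coding genes called Rpl or Rps followed by a digit, together with Rplp0 to Rplp2 and Rpsa, leaving out pseudogene names, the Rps6k kinases, Rps19bp1 and the Rpl copies whose names carry an added l. This gave 79 of the 56940 genes listed in each library, 46 of the large and 33 of the small ribosomal subunit. The copies Rps27l and Rps27rt stayed in, because the naming rule removes such copies only from the Rpl series.

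The samples were lens capsules with their attached lens epithelial cells from wildtype C57BL/6 mice, collected either at the time of surgery (0 h, 3 libraries) or 5 days after it (3 libraries). Each library was a pool of 5 capsules, and no treatment other than surgery and no age are given. Mice had surgery on one eye, and at harvest 5 days later the other eye supplied the 0 h capsule, which therefore came from mice that had already undergone surgery. Nothing states that a 0 h and a 5 day pool of the same number share mice, or that the pools of one time come from separate surgical sessions, so p-values measure the spread between these pools.

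A cytoplasmic ribosome joins a small subunit, which reads the mRNA, and a large subunit, which forms the peptide bond. Most of its proteins are present in about equal copy number. Ribosomal protein mRNAs belong to a class that starts with a run of pyrimidines, the terminal oligopyrimidine (TOP) tract, through which mTORC1 and the binding protein LARP1 control their translation and stability together. Lens epithelial cells, the dividing layer of the lens that gives rise to fiber cells, are left on the capsule by cataract surgery.

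Start site sequences are shown for 8 members, because the run of pyrimidines at the start is the feature by which this gene class is known. A promoter entry was matched for 59 of the 79 members in the RefSeq table (GRCm38.p6, an older build than that of the counts). Each line gives 40 bases before the annotated start and 20 from it, 5′ to 3′ on the gene's strand. Capitals mark the longest unbroken run of C or T that touches the 5 bases on either side of the start.
Rps6: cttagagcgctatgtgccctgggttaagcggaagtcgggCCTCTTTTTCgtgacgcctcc
Rpl4: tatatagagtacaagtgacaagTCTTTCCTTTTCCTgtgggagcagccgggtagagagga
Rpl7a: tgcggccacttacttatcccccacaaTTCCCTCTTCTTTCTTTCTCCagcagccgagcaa
Rps27: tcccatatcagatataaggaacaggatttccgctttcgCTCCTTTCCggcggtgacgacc
Rplp2: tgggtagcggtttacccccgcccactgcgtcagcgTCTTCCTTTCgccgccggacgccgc
Rps9: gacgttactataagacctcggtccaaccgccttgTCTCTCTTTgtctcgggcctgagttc
Rplp0: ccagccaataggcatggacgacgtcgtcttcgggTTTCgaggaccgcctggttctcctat
Rps12: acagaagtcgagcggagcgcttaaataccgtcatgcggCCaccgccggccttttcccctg

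The windows lie at chr4:86857348-86857407 on the minus strand for Rps6, at chr9:64173347-64173406 on the plus strand for Rpl4 and at chr2:26910767-26910826 on the plus strand for Rpl7a. Those of Rps27 (chr3:90213629-90213688, minus strand), Rplp2 (chr7:141447611-141447670, plus strand) and Rps9 (chr7:3704001-3704060, plus strand) follow. Rplp0 lies at chr5:115559427-115559486 on the plus strand and Rps12 at chr10:23787190-23787249 on the minus strand. At or within 5 bases of the annotated start the first 6 carry a run of 9 to 21 pyrimidines, and Rplp0 and Rps12 carry runs of 4 and 2. The marked runs of Rpl4, Rplp0 and Rps12 end before the annotated start and do not include it. Rplp0 and Rps12 hold a longer run further on that is not in capitals, of 7 and 11 bases. That of Rps12 begins 8 bases after the annotated start. A run of at least 8 was found in 20 of the 59 members (33.9%) and in 9.72% of all 32851 RefSeq promoters. The RefSeq start lay over 5 bases from the start of the GENCODE principal transcript in 40 of the 59 members, by 120 bases in Rps12, so the start used in these cells is not known. A window without a run says only that these letters are not at the annotated start.

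The libraries held 6207387 to 9774343 gene counts, of which 66783 to 185789 fell on the ribosomal protein genes. Principal component analysis separated the times on its first axis, and replicate 3 at 5 days lay apart on the second. All 6 lens epithelial markers were detected, with a summed level of 1624 to 1683 CPM at 0 h and 1157 to 1383 CPM at 5 days, and 3 of them fell and 2 rose. CPM are normalised counts scaled to a common library size by TMM, the trimmed-mean normalisation of edgeR. Markers of most other cell types moved with the comparison. Of macrophage markers 8 of 8 rose, from a sum of 14.5 to 31.0 CPM at 0 h to 458.1 to 642.6 CPM at 5 days. Of lens fiber markers 6 of 6 fell, from 115111 to 135062 CPM to 7636 to 26683 CPM. Of 4 neutrophil markers 2 were tested and rose, with a sum of at most 0.329 CPM at 0 h and of 13.9 to 23.2 CPM at 5 days, and Ly6g had no counts in any library. All 5 photoreceptor markers fell, from 457.8 to 696.0 CPM in sum to 28.1 to 81.8 CPM, and 3 of 4 fibroblast markers rose and 1 fell, with sums of 333.5 to 358.3 CPM and 968.2 to 1525 CPM. Of 3 endothelial markers 2 rose, with sums of 2.83 to 9.30 CPM and 16.1 to 35.04 CPM. Of 4 melanocyte or iris pigment markers 3 were tested and 0 were called, with sums of 11.7 to 31.5 CPM and 10.3 to 35.3 CPM. Mitochondrially encoded genes took 5.36 to 5.84% of gene counts at 0 h and 8.59 to 11.5% at 5 days. The part of these markers and shares in the results below was not tested, and in pooled tissue fewer cells of a type and less RNA per cell cannot be told apart.

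The comparison of 5 days with 0 h asked how the transcripts of the lens epithelium differ after cataract surgery. Ribosomal protein transcripts fell almost as one block. Of 79 members 78 passed the low-count filter, 72 fell and 0 rose (edgeR quasi-likelihood test, Benjamini-Hochberg adjusted p under 0.05 over the 14676 genes tested). Over all tested genes 22.5% were called lower and 25.1% higher. Upward, 0 members had an unadjusted p under 0.05, and 0 were called by DESeq2 or limma voom, which called 70 and 73 lower. The median log2 fold change of 5 days over 0 h was -0.79 among the members, a median change of -42.2%, against -0.01 over all tested genes. The CPM of the 3 libraries at 5 days lay wholly below those at 0 h for 74 of the 78 members, and for 28.2% of all tested genes. They lay wholly above for 0 members and for 29.9% of all tested genes. Scaled by total library size, the median of all tested genes moved to 0.12, where 67 members fell with a median of -0.66 and 17.8% of all genes were called lower. The share of all calls that were upward was 52.7% with TMM scaling and 62.9% with total library size. Of the 72 members that fell, 66 did so in all 14 fits made, and Rps4x, Rpl41, Rps28, Rps16, Rpl19 and Rplp2 missed the threshold in at least 1 of them.

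The changes were of similar and moderate size. The middle part of the members, from the first to the third quartile, spanned -0.92 to -0.62 on the log2 scale. Of the 78 tested members 11 were called lower by at least 2-fold, against 10.9% of all tested genes. Counted only among genes called lower, falls of at least 2-fold were 11 of 72 members and 1597 of 3301 genes over all tested. The standard deviation of the log2 fold change across tested members was 0.28, where the median standard error (SE) of a single member was 0.11 and the standard deviation across all tested genes was 1.62. Large subunit genes had a median of -0.84 (43 of 45 tested fell) and small subunit genes a median of -0.74 (29 of 33 fell). The 4 X-linked members, Rpl10, Rpl36a, Rpl39 and Rps4x, all fell, with a median of -0.66.

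**Figure D1:**
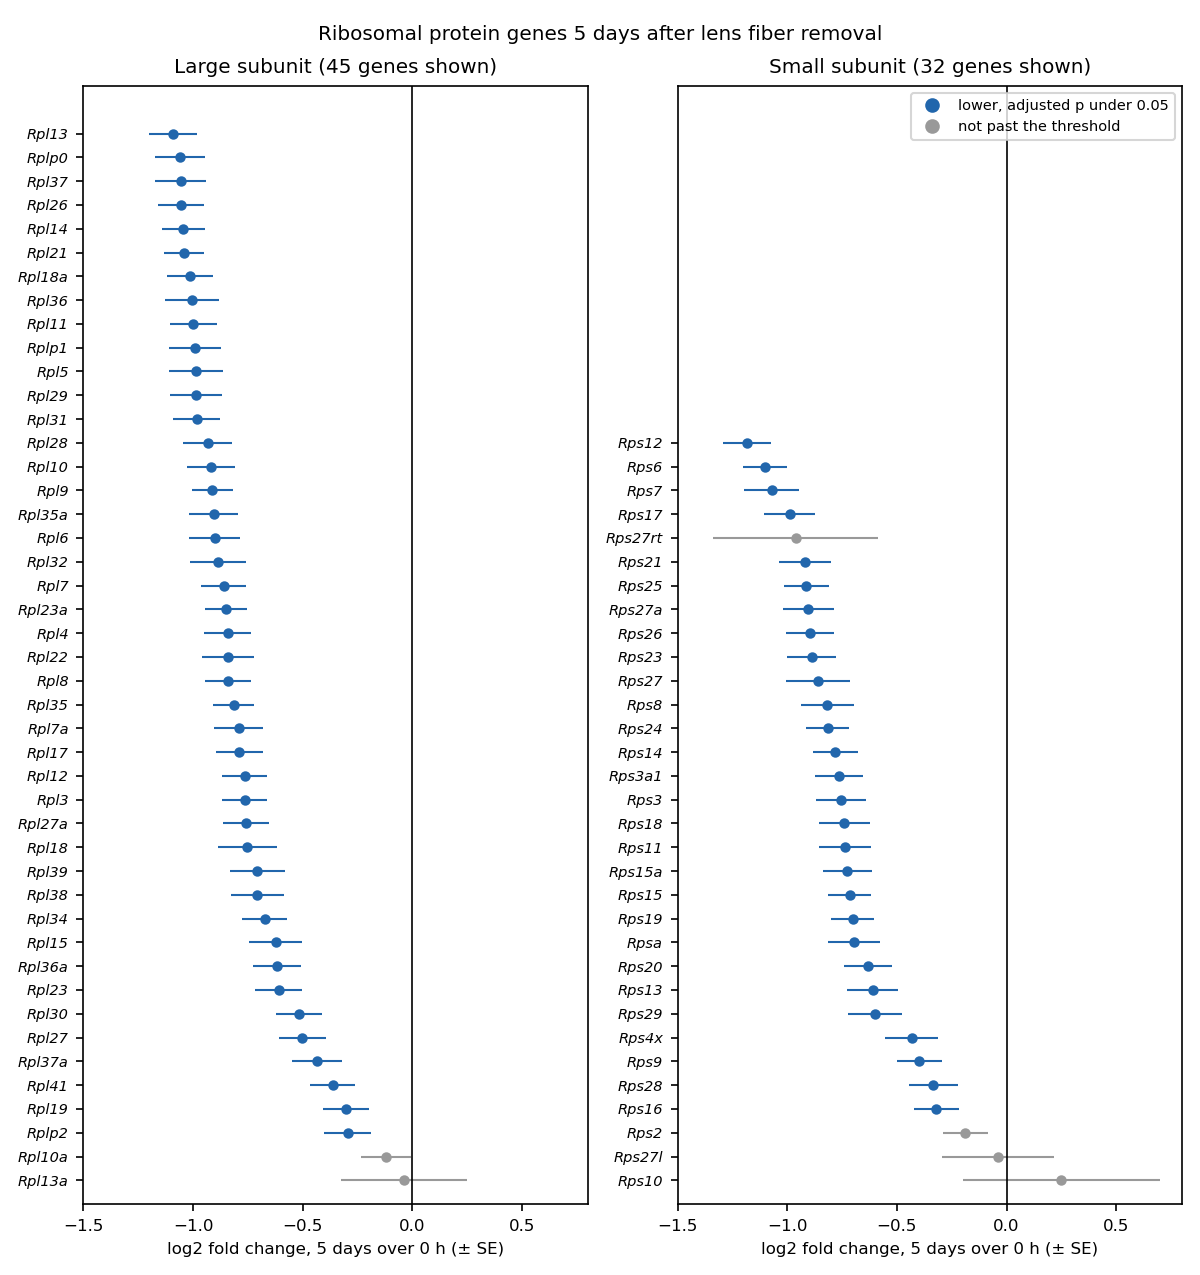
Log2 fold change of 5 days over 0 h (x axis) with its standard error for each tested large subunit gene (left, 45) and small subunit gene (right, 1 of 33 not drawn); blue points passed the test and grey points did not. All but 6 of the tested members passed, every one of them downward, and Rplp2, Rpl19, Rpl41, Rps16 and Rps28 sit closest to 0 among those that passed.

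As a share of all gene counts, which needs no scaling between libraries, the ribosomal protein genes made up 1.64%, 1.90% and 1.74% in replicates 1, 2 and 3 at 0 h and 1.08%, 1.07% and 1.17% at 5 days. The group means were 1.76 ± 0.130% at 0 h and 1.11 ± 0.0581% at 5 days (SD, n = 3), and the lowest library at 0 h stood above the highest at 5 days. Large subunit genes went from 1.14 ± 0.0782% to 0.696 ± 0.0400% and small subunit genes from 0.627 ± 0.0515% to 0.410 ± 0.0184% (SD, n = 3). Small subunit genes took 35.1 to 35.8% of the ribosomal protein counts at 0 h and 36.7 to 37.5% at 5 days, ranges that did not overlap. With crystallin and mitochondrially encoded genes left out of the total, the share was 2.24 ± 0.200% at 0 h and 1.26 ± 0.0404% at 5 days (SD, n = 3). Members moved together between libraries of one time: at 0 h, replicate 2 had the top value in 70 of the 78 tested members and replicate 1 the bottom value in 62, so members do not give independent evidence.

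**Figure D2:**
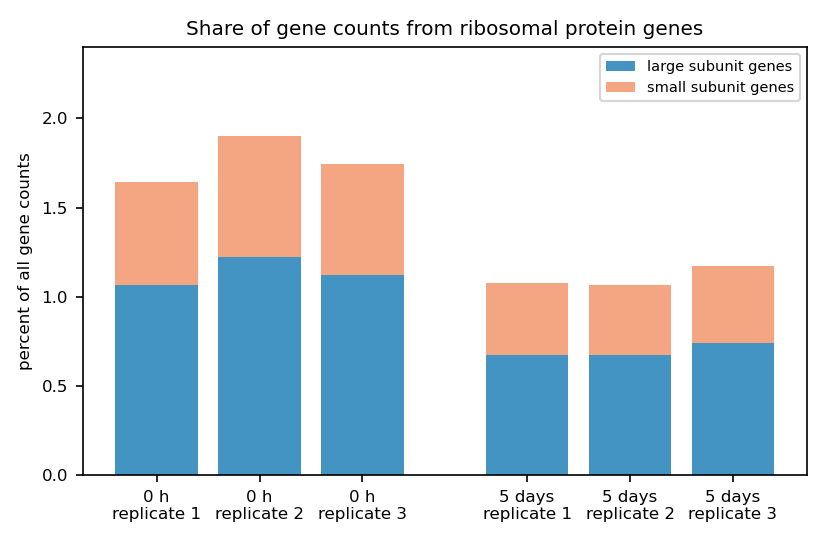
Percent of all gene counts (y axis) that fell on large subunit genes (blue) and small subunit genes (orange) in each of the 6 libraries. The summed height is 1.64 to 1.90% in the libraries of 0 h and 1.07 to 1.17% in those of 5 days.

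The stalk of the large subunit, which recruits the elongation factors, is built on Rplp0 with the acidic proteins Rplp1 and Rplp2, beside Rpl12 at its base. Rplp0 (ENSMUSG00000067274), widely used as a reference gene, stood at 967, 1160 and 966 CPM in the 3 libraries of 0 h and at 482, 488 and 514 CPM at 5 days. Its groups did not overlap, and its log2 fold change was -1.06 (SE 0.11, adjusted p = 1.01e-05 by edgeR's quasi-likelihood test). Rplp1 went from 476, 612 and 544 CPM to 260, 262 and 298 CPM, a log2 fold change of -0.99 (SE 0.12, adjusted p = 2.37e-05). Both fell clear of the spread between pools.

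Rplp2, the partner of Rplp1 in the stalk, moved less: it stood at 345, 418 and 362 CPM at 0 h and at 330, 295 and 293 CPM at 5 days, a log2 fold change of -0.29 (SE 0.11, adjusted p = 0.0406). The groups of Rplp2 came close to each other, at 345 and 330 CPM. That call was lost with total library size, with no low-count filter, without replicate 2 or 3 of either time, and with the replicate number as a block, where the adjusted p was 0.0656 in a range of 0.0219 to 0.196 over the 13 alternatives. The count ratio of Rplp2 to Rplp1 within a library, which no scaling alters, was 0.725, 0.684 and 0.665 at 0 h and 1.27, 1.13 and 0.982 at 5 days, so its groups were separate.

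Rpl5 and Rpl11 bind the 5S ribosomal RNA and, outside the ribosome, the p53 regulator Mdm2. Rpl5 went from 604, 786 and 661 CPM to 344, 316 and 375 CPM, a log2 fold change of -0.99 (SE 0.12). Rpl11 went from 174, 210 and 183 CPM to 95.8, 87.2 and 101.1 CPM, a log2 fold change of -0.998 (SE 0.11). The adjusted p was 3.56e-05 for Rpl5 and 9.05e-06 for Rpl11 by edgeR, and the values of the pair were close to each other although their levels differed. Among 9 proteins around the exit of the nascent peptide tunnel all 9 fell, with a median of -0.82, from Rpl26 at -1.05 to Rpl19 at -0.30. Rpl22, one of these 9, went from 229, 308 and 256.8 CPM to 153, 138 and 153 CPM, a log2 fold change of -0.84 (SE 0.12). Rpl10, an X-linked protein near the peptidyl transferase centre, fell by 0.92 on the log2 scale (SE 0.11).

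The small subunit held the member that fell furthest. Rps12, a protein of its head, stood at 184, 232 and 207 CPM at 0 h and at 85.6, 97.7 and 90.2 CPM at 5 days, a log2 fold change of -1.19 (SE 0.11, adjusted p = 2.99e-06 by edgeR). Rps6, the subunit protein that S6 kinase phosphorylates downstream of mTORC1, went from 340, 409 and 371 CPM to 176, 176 and 170 CPM, a log2 fold change of -1.10 (SE 0.10, adjusted p = 2.75e-06). The 3 libraries of Rps6 at 5 days were almost level and far below the range of 0 h. Of 14 proteins of the small subunit head 13 fell, with a median of -0.71. Among them Rps19, which is linked to Diamond-Blackfan anaemia in people, went from 134, 156 and 150 CPM to 84.3, 93.6 and 92.6 CPM, a log2 fold change of -0.70 (SE 0.10). Rpsa, which shares its protein with the laminin receptor, went from 757, 912 and 746 CPM to 500, 455 and 537 CPM, a log2 fold change of -0.69 (SE 0.12). Other large falls were those of Rpl13 (-1.09), Rps7 (-1.07) and Rpl37 (-1.06) on the log2 scale, and Rpl3 and Rpl4, among the 6 members of highest mean CPM, fell by 0.76 and 0.84.

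**Figure D3:**
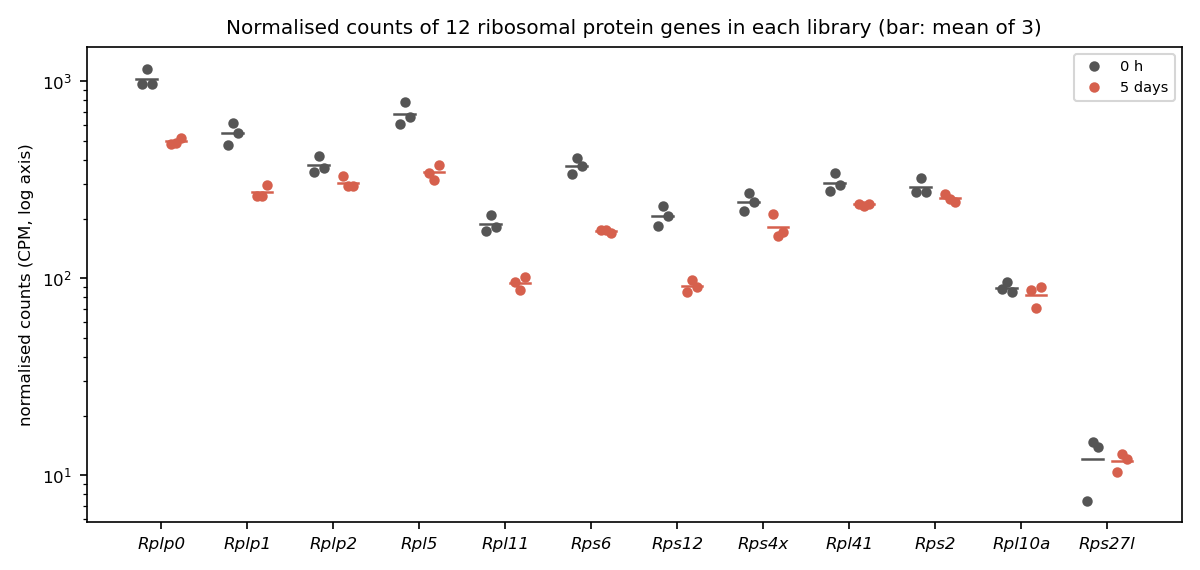
Normalised counts in CPM on a log axis for 12 members, with 1 point per library at 0 h (grey) and 5 days (red) and a bar at the mean of 3. Rplp0, Rplp1, Rpl5, Rpl11, Rps6 and Rps12 are clearly separated by time, while the groups of Rpl10a and Rps27l overlap.

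Of the 78 tested members 6 did not pass the test: Rps27rt, Rps2, Rpl10a, Rps27l, Rpl13a and Rps10. Rps2, an abundant protein at the mRNA entry of the small subunit, stood at 273, 324 and 274 CPM at 0 h and at 268, 252 and 245 CPM at 5 days, a log2 fold change of -0.19 (SE 0.10, adjusted p = 0.154 by edgeR). Rpl10a stood at 87.8, 95.7 and 85.5 CPM and at 87.2, 70.3 and 90.0 CPM, a log2 fold change of -0.12 (SE 0.11, adjusted p = 0.406). For both, the values of 5 days lay near or within those of 0 h, and the interval of the Rpl10a log2 fold change, from -0.34 to 0.10 (95%, SE-based), does not reach the median of the members. The p53-induced copy Rps27l (12.02 ± 4.01 and 11.7 ± 1.26 CPM, n = 3) had a log2 fold change of -0.04 (SE 0.25) whose sign turned under total library size and limma voom, and Rps27rt one of -0.96 (SE 0.38, adjusted p = 0.0528). Rps27rt passed the threshold by DESeq2 (adjusted p = 0.03) and limma voom (adjusted p = 0.0371), in a range of 0.00513 to 0.143 over the alternatives.

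To see which members departed from the rest, the same test was run with the summed ribosomal protein counts as the library size, so that a fold change is relative to that pool. On this scale 12 members rose and 3 fell, where 62.2% of all tested genes were called higher and 6.21% lower. The adjustment ran over all 14676 tested genes, most of which were called on this scale. It therefore corrects little for the number of members looked at. The members higher against the pool were Rps27l, Rpl10a, Rps2, Rplp2, Rpl19, Rps16, Rps28, Rpl41, Rps9, Rps4x, Rpl37a and Rpl27. The pool-relative log2 fold change was 0.68 for Rpl10a (adjusted p = 0.000184), 0.62 for Rps2 (adjusted p = 0.000324), 0.51 for Rplp2 (adjusted p = 0.00159) and 0.44 for Rpl41 (adjusted p = 0.00284), the smallest ribosomal protein. For Rps4x, the X-linked protein of the small subunit that fell by 0.43 under the main scaling (SE 0.12), it was 0.37 (adjusted p = 0.0166). Of the 12, 8 were called in all 9 settings of this fit: Rps9, Rpl41, Rps28, Rps16, Rpl19, Rplp2, Rps2 and Rpl10a. The members lower against the pool were Rps12 (-0.38), Rps6 (-0.30) and Rpl13 (-0.29), none of which was called in all 9 settings: their number was 0 without replicate 1 at 5 days, 1 without replicate 1 or 3 at 0 h and 1 with the replicate block.

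Members with a longer and with a shorter pyrimidine run at or near the RefSeq start had similar medians. As the start used in these cells is not known, this split does not separate members with a TOP tract from those without. The tested members with a run of at least 8 bases (20) had a median log2 fold change of -0.75, and those with a shorter run (38) one of -0.79. Rps6, which carries a run of 10, had one of the largest falls, and Rplp2, with a run of the same length, one of the smallest. Across the 58 tested members with a promoter entry, Spearman's rho of run length with log2 fold change was 0.07, a description of genes that share the same libraries. Spearman's rho of the mean CPM at 0 h with log2 fold change was -0.43 across the 78 tested members. It was -0.39 without the 2 that overlap another gene on the same strand over more than 50% of the transcript. The 0 h values enter both measures of that pair.

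Counts of several members are uncertain, because ribosomal protein genes have many near-identical processed copies and a few share exons with other genes. In the GENCODE M21 transcripts, a median of 61.2% of the 50-base words of a member's principal transcript also occurred in another gene, and the highest share was 98.6% for Rps27. The sources used here do not give the read length or the handling of reads with several matches. Alignments that were not unique made up 4.85 to 6.205% of reads at 0 h and 4.96 to 6.60% at 5 days. The 27 tested members with at most 50% of such words had a median log2 fold change of -0.76 (26 fell), and the 51 with more had one of -0.82 (46 fell). The 300 listed pseudogene rows of these genes held 0.0146 to 0.0165% of the gene counts at 0 h and 0.00880 to 0.0103% at 5 days, ranges that did not overlap.

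For 3 members over 50% of the principal transcript overlaps an exon of another gene on the same strand: Rps10 (91.6%), Rpl24 (71.5%) and Rpl13a (59.3%). Rpl24 had 4 counts in all over the 6 libraries and was the member that failed the filter. Rps10 had 12 to 19 counts per library, and Rpl13a 42 to 61. Rps10 stood at 1.81 ± 0.400 and 2.18 ± 0.738 CPM and Rpl13a at 6.24 ± 1.72 and 6.07 ± 0.721 CPM (SD, n = 3), far under the other standard subunit genes. Without these 3 members 72 of 76 fell, with a median of -0.80. The 95% interval of the log2 fold change ran from -0.63 to 1.13 for Rps10 and from -0.60 to 0.53 for Rpl13a. On the opposite strand 8 members overlap an exon of another gene, with the largest shares in Rpl35 (68.3%), Rpl23a (55.4%) and Rpl5 (46.6%). How the counting treated strand is not known, so their counts may hold reads of those genes.

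**Figure D4:**
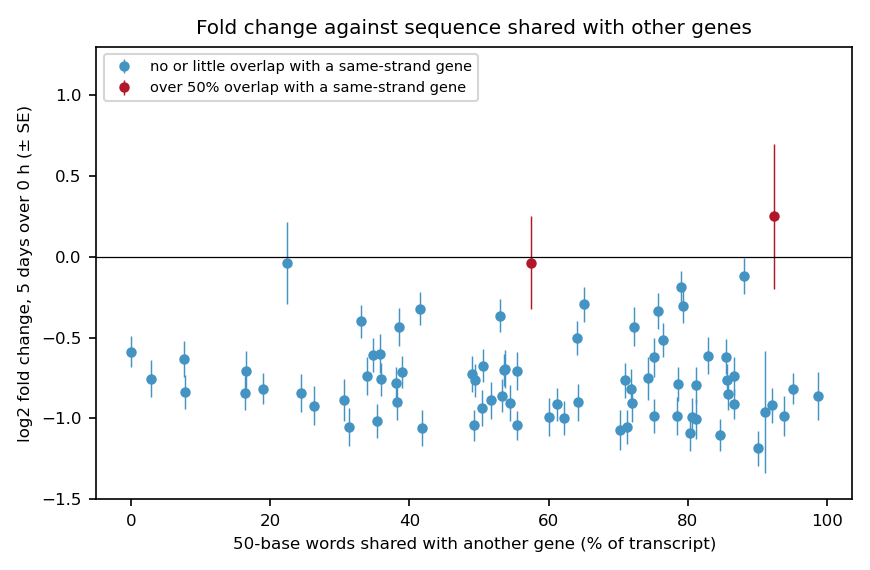
Log2 fold change with its standard error (y axis) against the percent of a member's transcript words of 50 bases that also occur in another gene (x axis), for the 78 tested members. Members with at most 50% and with over 50% of shared words have medians of -0.76 and -0.82, and the red points, Rpl13a and Rps10, overlap another gene on the same strand.

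Per length of the principal transcript, members were at a median of 259.6 CPM per kb at 0 h and 142.6 at 5 days. The highest per length at 0 h were Rplp1 (1090 CPM per kb), Rpl26 (967 CPM per kb) and Rplp2 (891 CPM per kb). At 5 days Rplp2 stood above Rplp1, at 727 against 548 CPM per kb. Values for short and for abundant transcripts outside the members stood as follows. Among tested protein-coding genes outside the members, the 210 with under 1000 exonic bases had a median log2 fold change of -0.45 (34.3% called lower), and the 1484 with at least 100 CPM at 0 h had one of -0.15 (42.3% called lower). The 14 that were both short and abundant had a median of -2.62, and 78.6% of them were called lower. Among protein-coding genes only the members were left out of these classes, so lens fiber genes could fall in them. The level limit was set on the 0 h values, which also enter the fold change, so that class can lean toward falls. The length limit counts all exonic bases of a gene and not its principal transcript, so the classes are not matched to the members. The 6 lens fiber markers had a median of -2.85. The part of transcript length or level in the fall of the members was not tested.

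Copies of ribosomal protein genes, some of them used in place of the parent in other tissues, were compared with their parents. Within a library, the log2 count ratio of the copy to its parent was higher at 5 days for Rpl22l1 over Rpl22 by 1.23, for Rpl7l1 over Rpl7 by 1.14, for the transcribed pseudogene Rps4l over Rps4x by 1.07 and for Rps27l over Rps27 by 0.87. For each of these pairs the 3 ratios of 5 days lay above the 3 of 0 h (exact two-sided permutation p = 0.1, the smallest that 3 against 3 can give, and adjusted p = 0.125 over the 5 pairs tested). The parents had log2 fold changes of -0.84 (Rpl22), -0.86 (Rpl7), -0.43 (Rps4x) and -0.86 (Rps27). A copy that did not change would therefore also gain on its parent, and Rps27l itself stood at -0.04. Rpl22l1, which can replace Rpl22, stood at 13.1, 9.98 and 10.3 CPM at 0 h and at 12.9, 14.7 and 16.1 CPM at 5 days, a log2 fold change of 0.40 that did not pass the test (SE 0.19, adjusted p = 0.113). Rpl7l1 also missed the threshold, at 0.28 (SE 0.11, adjusted p = 0.0504), and Rps4l rose by 0.63 (SE 0.17, adjusted p = 0.00888 by edgeR). The 14 counts of Rpl36al gave no separate groups (difference -0.16, exact p = 0.9), and Rpl39l, Rpl3l and Rpl10l had 2, 2 and 0 counts in all. Of the 10 names in the copy list, which holds Rps27l and Rps27rt too, 5 were tested, 1 rose and 0 fell by edgeR, while 1 had an unadjusted p under 0.05 downward and 1 was called lower by DESeq2 and by limma voom.

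Ribosomal proteins made as ubiquitin fusions and the scaffold Rack1 gave mixed values. Rps27a went from 204, 279 and 233 CPM to 128, 130 and 125 CPM, a log2 fold change of -0.90 (SE 0.12). Rack1, a scaffold protein on the small subunit, fell by 0.36 on the log2 scale (SE 0.10). Fau, which encodes the small subunit protein eS30 behind a ubiquitin-like part, was not called, at -0.10 (SE 0.10, adjusted p = 0.476). Of the 6 genes of this list 4 fell and 0 rose, where 22.5% of all tested genes were called lower and 25.1% higher. Among those that fell was the abundant ubiquitin gene Ubb, at -0.51. Upward, 0 of this list had an unadjusted p under 0.05 and 0 were called by DESeq2 or limma voom.

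Other genes of protein synthesis were counted in the same way, beside the 22.5% of all tested genes called lower and the 25.1% called higher. Of 17 elongation and release genes 10 fell and 1 rose, with a median of -0.34. Eef1a1, the elongation factor that delivers aminoacyl-tRNA and itself a TOP mRNA, went from 2131, 2630 and 2393 CPM to 1489, 1407 and 1674 CPM, a log2 fold change of -0.65 (SE 0.13, adjusted p = 0.00127). Eef2, the translocation factor, fell by 0.51 (SE 0.11), Tpt1, another TOP mRNA, by 0.62 (SE 0.12) and the tissue-restricted Eef1a2 by 1.24 (SE 0.34). Eef2k, the kinase that inhibits Eef2, rose by 0.78 (SE 0.16). Of 37 initiation genes 15 fell and 6 rose, with a median of -0.21. The helicase Eif4a2 fell by 0.97 (SE 0.12), while Eif1a rose by 1.24 (SE 0.16) and the scaffold subunit Eif3a by 0.30 (SE 0.11).

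Host genes of small nucleolar RNAs, some of which are TOP transcripts too, had a median close to that of the ribosomal proteins. Of 17 names 12 were tested, 7 fell and 0 rose, with a median of -0.77. Upward, 1 host gene had an unadjusted p under 0.05, 0 were called by DESeq2 and 1 by limma voom. Gas5 went from 115, 121 and 117 CPM to 48.1, 49.4 and 44.2 CPM, a log2 fold change of -1.32 (SE 0.09, adjusted p = 3.75e-07), and its groups were far apart. Snhg12 fell by 1.92 (SE 0.30). Mitochondrial ribosomal protein genes, which encode the separate ribosome of that organelle, had a median of -0.24, and 14 of 77 tested fell and 1 rose, a share of falls no higher than the 22.5% of all tested genes. Mrps6 fell from 52.5 ± 9.45 to 18.6 ± 3.74 CPM (SD, n = 3), a log2 fold change of -1.496, and Mrpl38 was the member that rose, by 0.67 (SE 0.15).

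Genes that assemble ribosomes had a median above 0. Of 83 ribosome biogenesis genes 14 rose and 4 fell, with a median of 0.11, against -0.01 over all tested genes, of which 25.1% were called higher. The share of them that rose was below that 25.1%. With total library size 24 rose, where 4436 of the 14676 tested genes were called higher, a slightly larger share. Npm1, the nucleolar chaperone nucleophosmin, went from 102, 131 and 130 CPM to 194, 179 and 222 CPM, a log2 fold change of 0.71 (SE 0.12, adjusted p = 0.000455 by edgeR). Ddx10, a nucleolar helicase, rose by 0.85 (SE 0.13), and Eif6, which keeps new large subunits from joining early, by 0.70 (SE 0.11). Gnl2, a GTPase of large subunit maturation, fell by 0.97 (SE 0.09). Of 20 genes of RNA polymerase I and its factors, which make the precursor of ribosomal RNA, 2 fell and 0 rose, with a median of 0.03. Both are lower shares than the 22.5% of all tested genes called lower and the 25.1% called higher. Those that fell were the largest subunit Polr1a (-0.43) and the shared subunit Polr2e (-0.48). Upward, 1 of the 20 genes had an unadjusted p under 0.05 and 0 were called by DESeq2 or limma voom. DESeq2 called 1 lower.

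Regulators of TOP mRNAs and of ribosome production gave calls in both directions, with 6 of 25 higher and 6 lower and a median of -0.09, shares near the 25.1% and 22.5% of all tested genes. Myc, a transcription factor that drives ribosome genes, stood at 3.77, 6.47 and 5.13 CPM at 0 h and at 14.5, 19.0 and 22.9 CPM at 5 days, a log2 fold change of 1.87 (SE 0.25, adjusted p = 6.96e-05). Its relative Mycn went from 64.4, 72.2 and 62.7 CPM to 11.8, 12.9 and 5.15 CPM, a log2 fold change of -2.76 (SE 0.24). The kinase gene Mtor went from 614, 610 and 690 CPM to 336, 348 and 239 CPM, a log2 fold change of -1.05 (SE 0.14). Each of these 3 genes had groups that did not overlap. Larp1, which binds the TOP tract, was not called, at -0.09 (SE 0.09, adjusted p = 0.424), and the translational repressor Eif4ebp1 rose by 1.65 (SE 0.18).

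**Figure D5:**
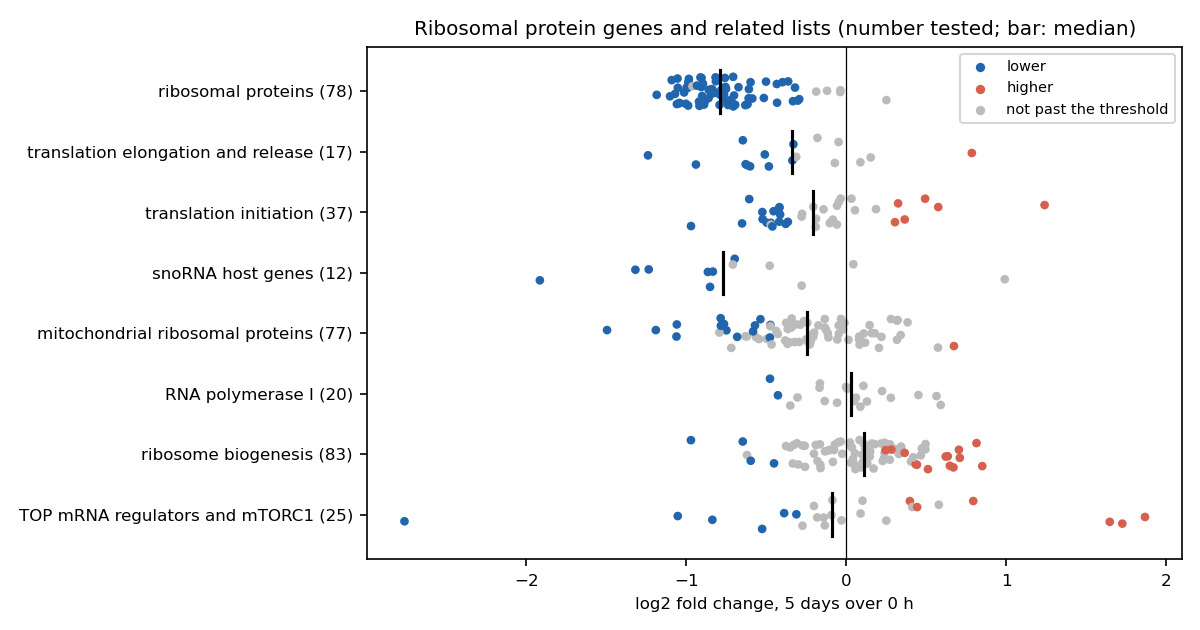
Log2 fold change of 5 days over 0 h (x axis) for each tested gene of 8 lists (rows, with the number tested), coloured by call, with a black bar at each median. All ribosomal proteins but Rps10 lie to the left of 0, with a median of -0.79, and ribosome biogenesis genes lie around 0 with a median of 0.11.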

How the data were processed

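Per the submitters' processing notes the authors used HISAT2, HTSeq and edgeR with GRCm39, and the deposited values are raw read counts per Ensembl gene. Libraries were made with a stranded total RNA kit, per the labels' protocols. The sources used here do not give the versions, the annotation release or how HTSeq treated strand and overlaps. HTSeq's summary entries (32.3 to 42.6% of reads) were left out. Symbols, gene types and transcripts came from GENCODE M21 (GRCm38), which named 91.2% of the 56940 listed genes, and promoters from RefSeq.

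The 3 libraries of each time were compared in edgeR 4.0.16 (R 4.3.3): filterByExpr, TMM, quasi-likelihood test and Benjamini-Hochberg adjustment over 14676 genes at 0.05. Fold changes are log2 of 5 days over 0 h. Groups follow the sample titles; the descriptions of 5 day replicates 2 and 3 carry other library names. On simulated data 78 of 100 genes changed 2-fold, 99 of 100 changed 4-fold and 7 of 14476 unchanged genes were called. The simulation gave all genes the same dispersion and changed few of them, as many up as down. In the real data 47.6% of tested genes were called, so these rates need not carry over. Alternatives were other scalings and filters, a replicate block, limma 3.58.1 voom, DESeq2 1.42.0 and leaving out each library. Rps10, Rpl13a and Rpl24 had few counts and overlap other genes.

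The members and gene lists were chosen with earlier results of these data known. Named by rule were the 6 members of highest mean CPM, the 6 largest falls, the 2 smallest changes, 12 members of known role, and for each other list its highest called gene and its largest rise and fall. Rps2, Rpl10a, Rpl41, Rpl19, Rps9, Rps28, Rps16, Rpl37a, Rpl27, Rps10, Rpl24, Rpl26, Rps27a, Rps27rt, Larp1, Eif4ebp1, Fau, Rack1, Eif6, Eef2 and Tpt1 were named after their values were seen. A few single-gene results are not reported here.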

Additional observations from a re-analysis of the deposited data

How the results depend on the processing

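Leaving out 1 library at a time gave 66 to 73 members lower and 0 higher, a median log2 fold change of -0.86 to -0.72, a share difference of -0.717 to -0.588 percentage points, and 10 to 13 members higher and 0 to 4 lower against the ribosomal protein pool. The median was -0.66 with total library size, and the share difference was -0.986 points without crystallin and mitochondrially encoded genes in the total. The replicate numbers are not stated to pair pools, and same-numbered pools did not deviate together (correlations 0.0385, -0.0897 and 0.0434). With the replicate number as a block 72 members were lower and 0 higher, and 1 was lower against the pool. The cause of each shift named here was not tested.

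With total library size the copy list had 3 genes higher, the ubiquitin and Rack1 list 2 lower, ribosome biogenesis 24 higher, RNA polymerase I 1 higher and 1 lower, mitochondrial ribosomal proteins 4 higher, snoRNA hosts 1 higher and TOP regulators 3 lower. Under that scaling 4436 of the 14676 tested genes were called higher and 2618 lower. TMM without crystallin, mitochondrial and ribosomal protein genes gave 2 copies and 1 snoRNA host higher, and the filter of 5 CPM gave 2 copies higher. With no low-count filter, the block, limma voom and DESeq2, 1 copy was lower. DESeq2 called 1 RNA polymerase I gene lower, and limma voom 1 snoRNA host higher.

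The sign of 4 of the 6 uncalled members turned in at least 1 alternative, and that of Rps2 and Rps27rt in none. Rpl13a was at 0.0891 with total library size, 8.30e-05 with limma voom, 0.20 without 0 h replicate 1 and 0.06 without 5 day replicate 2, in a range of -0.17 to 0.20 over the libraries left out. Rps27l was at 0.0955 with total library size, 0.0043 with limma voom, 0.13 without 0 h replicate 2, 0.07 without 0 h replicate 3 and 0.04 without 5 day replicate 1, in a range of -0.29 to 0.13 over the libraries left out. Rpl10a was at 0.0080 with total library size (-0.20 to -0.011 over the libraries left out) and Rps10 at -0.0415 without 5 day replicate 1 (-0.042 to 0.44). Rplp2 lost its call in 7 alternatives, and Rps4x in 1, without 0 h replicate 2 (-0.36, edgeR adjusted p = 0.0591).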
